A study of Mus musculus with 6 samples.

Results

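Bipolar and amacrine cells are the interneurons of the retina, and 9 of the genes that mark them were followed in CD31-sorted retinal cells from pups with or without an inducible deletion of Rnf20. The genes were chosen by symbol: Trpm1, Grm6, Vsx1, Prkca, Pcp2, Cabp5 and Isl1 for bipolar cells, and Tfap2b and Pax6 for amacrine cells. They are 9 of the 19124 genes in the deposited table, and all 9 passed the filter on low counts that left 16217 genes for testing. Where a gene had several transcript entries, the longest was used.

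The 3 KO pups had the genotype Pdgf{beta}CreERT2pos Rnf20p/p and the 3 Ctrl pups the genotype Pdgf{beta}CreERT2neg Rnf20p/p, all on the C57BL/6 strain. The recombinase is driven by the Pdgfb promoter, which is active in endothelium, and works only in the presence of tamoxifen. Pups of both groups carried the Rnf20p/p alleles and received 75 µg of Z-4-HO-tamoxifen a day from postnatal day 1 to day 4. At day 7 retinas were digested and CD31+ cells were sorted, and each library came from a different pup. The labels leave out which exons of Rnf20 the p allele removes. The series title places the study in sprouting angiogenesis and asks how Rnf20, an E3 ubiquitin ligase for histone H2B, bears on VEGF and Notch signalling.

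Bipolar cells carry the signal of rods and cones to amacrine and ganglion cells. In the dark, photoreceptors release glutamate, which ON bipolar cells sense with the receptor mGluR6 (Grm6). Through the G protein Go this receptor holds the cation channel TRPM1 shut, and light, by lowering glutamate, lets the channel open. Bipolar cells are among the last retinal cell types to be born, in the first days after birth in the mouse, so that they are still maturing at the age sampled here. Amacrine cells are inhibitory interneurons born earlier.

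The upstream sequences of 3 of the genes are shown because they hold TAATCC, the letters bound by OTX2 and CRX, the homeodomain factors of photoreceptors and bipolar cells. They were also chosen because all 3 genes were lower in every KO library than in every Ctrl library. So were 3 members without these letters and 18.9% of all tested genes, and a link between the letters and the levels was not tested. The 250 bases before each transcript start are from RefSeq on GRCm38.p6, written 5′ to 3′ on the gene's strand, and capitals mark TAATCC or, on the other strand, GGATTA.
Trpm1, chr7:64153585-64153834, plus strand: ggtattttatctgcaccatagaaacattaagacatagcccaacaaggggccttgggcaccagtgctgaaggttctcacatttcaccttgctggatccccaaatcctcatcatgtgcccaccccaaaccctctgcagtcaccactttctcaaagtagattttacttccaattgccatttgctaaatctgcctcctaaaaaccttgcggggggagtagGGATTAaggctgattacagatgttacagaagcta
Cabp5, chr7:13397905-13398154, plus strand: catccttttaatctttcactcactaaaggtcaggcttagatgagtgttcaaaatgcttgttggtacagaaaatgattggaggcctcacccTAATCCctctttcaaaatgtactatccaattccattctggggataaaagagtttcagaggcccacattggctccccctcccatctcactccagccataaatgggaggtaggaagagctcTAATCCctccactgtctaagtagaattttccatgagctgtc
Isl1, chr13:116309689-116309938, minus strand: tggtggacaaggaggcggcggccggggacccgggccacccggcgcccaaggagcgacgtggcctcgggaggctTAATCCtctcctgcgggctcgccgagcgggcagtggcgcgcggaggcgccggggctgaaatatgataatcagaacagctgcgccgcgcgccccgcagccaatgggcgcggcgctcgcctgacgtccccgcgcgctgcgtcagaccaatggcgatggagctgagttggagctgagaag

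The match began 34 bases before the Trpm1 start, 160 and 41 bases before the Cabp5 start and 177 bases before the Isl1 start. Of the 14 upstream windows that RefSeq gives for the 9 genes, 3 held TAATCC on either strand, against 6.25% of all 32851 windows of the same 250 bases. TAATTA, the letters bound by VSX and LIM homeodomain factors, was in 1 of the 14, an internal Pcp2 start, against 4.84% of all windows. A match describes the letters only. The windows of Grm6 and Vsx1 held neither, nor did the window before the other Trpm1 start.

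Levels are given as CPM, counts scaled by library size and TMM factor, and fold changes as log2 of KO over Ctrl with their standard error (SE) from edgeR's quasi-likelihood test. P-values were adjusted over all 16217 tested genes by the Benjamini-Hochberg method (edgeR adjusted p), with a threshold of 0.05. The KO libraries 1, 2 and 3 held 25016982, 27726249 and 30692948 counts and the Ctrl libraries 28969300, 22677108 and 14581701. Rnf20 itself had 39.1, 31.0 and 31.7 CPM in KO, against 47.9, 57.1 and 56.8 CPM in Ctrl, without overlap (log2 fold change −0.67, SE 0.235, edgeR adjusted p = 0.101).

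In KO libraries, 2 of the 9 genes fell past the threshold, Vsx1 and Trpm1, while 4.44% of all tested genes fell and 10.3% changed in either direction. No member rose (0 at unadjusted p under 0.05, 0 in DESeq2 and 0 in limma-voom), while 5.85% of all tested genes did. In Prkca, Cabp5, Isl1 and Pax6 the highest KO value was under the lowest Ctrl value, but the test did not pass. Groups without overlap and lower in KO were thus found for 6 of 9 members and for 18.9% of all tested genes, and groups without overlap in either direction for 37.9% of all tested genes. DESeq2 and limma-voom each called 5 members lower, where they called 9.49% and 5.69% of all genes lower. The median log2 fold change was −0.91 over the 9 members and 0.03 over all tested genes, and with GC offsets −0.55 and 0.05. The calls changed when 1 library was left out, in fits with fewer libraries to measure spread with. Without KO 2, Ctrl 1, Ctrl 2 or Ctrl 3, 0 members and 0 of all tested genes passed in edgeR (3576, 4005, 3434 and 3479 genes at unadjusted p under 0.05). Without KO 1, 5 members and 29.7% of all tested genes passed, and without KO 3, 1 member, Cabp5, and 5.23% of all tested genes. Over these 6 fits the log2 fold change ran from −1.28 to −0.97 for Trpm1 and from −1.57 to −1.13 for Vsx1. In bulk RNA, fewer cells of a type and less RNA per cell cannot be told apart.

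**Figure D1:**
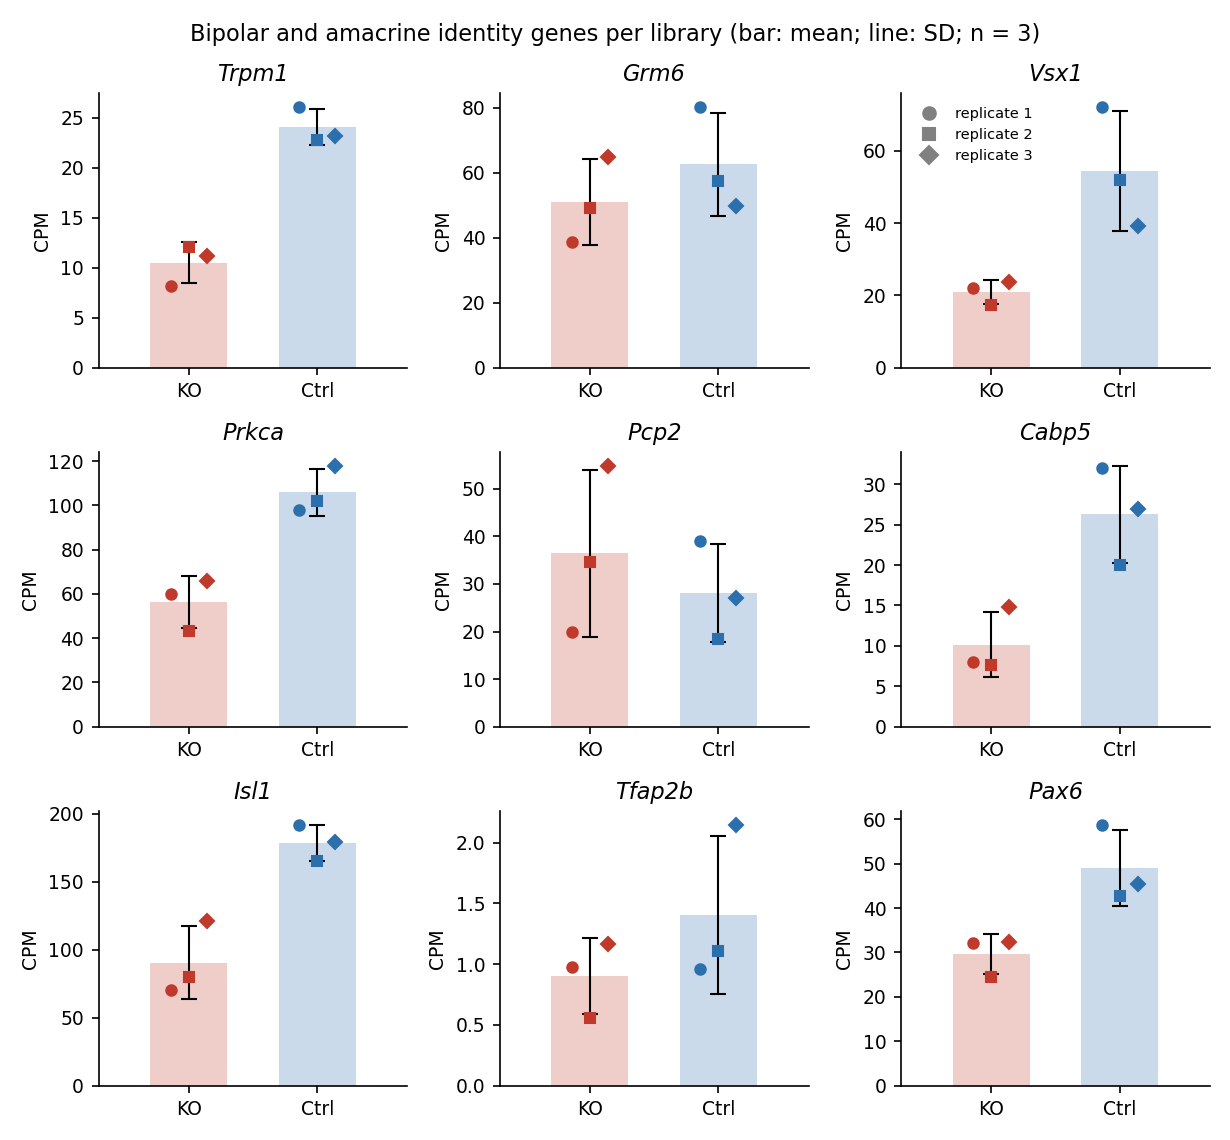
CPM of each of the 9 genes in KO (left) and Ctrl (right), with points for the 3 libraries of each group, bars for the mean and lines for the SD (n = 3). The points of KO and Ctrl do not overlap for Trpm1, Vsx1, Prkca, Cabp5, Isl1 and Pax6, and overlap for Grm6, Pcp2 and Tfap2b.

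Trpm1, the cation channel that opens in ON bipolar cells in light, lies on chromosome 7 from 64153835 to 64269772. It had 8.15, 12.1 and 11.2 CPM in KO 1, 2 and 3, against 26.1, 22.8 and 23.2 CPM in Ctrl 1, 2 and 3. Every KO library was under every Ctrl library, with KO 1 the lowest. The mean was 10.5 ± 2.06 CPM in KO and 24.0 ± 1.81 CPM in Ctrl (SD, n = 3 each), 2.29-fold higher in Ctrl, and the log2 fold change was −1.20 (SE 0.286, edgeR adjusted p = 0.0396). It missed the threshold without KO 2, KO 3, Ctrl 1, Ctrl 2 or Ctrl 3 (edgeR adjusted p = 0.105, 0.0809, 0.114, 0.153 and 0.146), with log2 fold changes between −1.28 and −1.13.

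Trpm1 had 2 transcript entries in the table, of 115924 and 39377 bases on the genome. The shorter entry (chromosome 7, 64185459 to 64224836 in GENCODE) held 62.5%, 56.1% and 76.2% of the longer entry's counts in KO and 68.1%, 63.4% and 58.4% in Ctrl. Both parts of the gene were lower in KO. Reads inside the shorter entry came to 6.81 ± 1.74 CPM in KO and 15.3 ± 2.22 CPM in Ctrl, and reads outside it to 3.68 ± 1.42 CPM in KO and 8.77 ± 0.756 CPM in Ctrl (SD, n = 3 each). With the shortest entry of each gene in the fit, Trpm1 missed the threshold at −1.16 (edgeR adjusted p = 0.0602).

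Grm6 encodes mGluR6, the glutamate receptor upstream of that channel, and lies on chromosome 11 from 50850369 to 50866208. Its level was 38.8, 49.1 and 65.0 CPM in KO and 80.4, 57.4 and 49.9 CPM in Ctrl. The groups overlapped, since KO 3 was above both Ctrl 2 and Ctrl 3. The log2 fold change was −0.30 (SE 0.294, 2 SE either side −0.89 to 0.29) and did not pass (edgeR adjusted p = 0.528), and with offsets for transcript GC content it was −0.55 (edgeR adjusted p = 0.102). It was −0.07 without KO 1 and −0.08 without Ctrl 1 (edgeR adjusted p = 0.869 and 0.903).

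The receptor and its channel thus did not keep 1 proportion across the libraries. Grm6 counts were 4.75, 4.07 and 5.78 times the Trpm1 counts in KO, against 3.08, 2.52 and 2.15 times in Ctrl. Each KO ratio was above each Ctrl ratio, which for 3 against 3 is the most extreme outcome, and the smallest two-sided p that an exact permutation test can give there is 0.1. Grm6 counts were 1.77, 2.85 and 2.75 times the Vsx1 counts in KO, against 1.11, 1.11 and 1.27 times in Ctrl, again without overlap. These pairs were chosen after the values were seen. The other ratios taken overlapped, Pcp2 over Grm6 (0.513, 0.706 and 0.845 in KO, 0.485, 0.322 and 0.542 in Ctrl) and Isl1 over Vsx1. Of single genes 37.9% separated the groups in either direction, and the share of gene pairs that do so was not computed.

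Pcp2 encodes a small protein that binds Go and is made in bipolar cells and Purkinje cells. It had 19.9, 34.7 and 54.9 CPM in KO, against 39.0, 18.5 and 27.0 CPM in Ctrl. The highest and the second lowest of the 6 libraries were both KO. The log2 fold change was 0.37 (SE 0.429, 2 SE either side −0.49 to 1.23) and did not pass (edgeR adjusted p = 0.591). Its sign depended on the scaling, at −0.01 with GC offsets and −0.94 with libraries scaled to equal endothelial markers.

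Pcp2 counts are uncertain. Its last 867 bases (chromosome 8, gene 3623369 to 3625547, minus strand) overlap Pet100, a mitochondrial assembly gene on the plus strand, and the protocol does not mark strand. Pet100 had 26.1, 41.3 and 51.5 CPM in KO and 37.0, 26.5 and 33.5 CPM in Ctrl, which puts KO 3 on top and Ctrl 2 low in both genes. How far the reads of one are reads of the other was not tested.

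Vsx1 encodes a homeodomain transcription factor of cone bipolar cells and lies on chromosome 2 from 150680702 to 150689137. It had 21.9, 17.2 and 23.7 CPM in KO, against 72.2, 52.0 and 39.2 CPM in Ctrl. The KO libraries lay close together and the Ctrl libraries spread out, with no overlap between them. The mean was 20.9 ± 3.34 CPM in KO and 54.5 ± 16.6 CPM in Ctrl (SD, n = 3 each), 2.60-fold higher in Ctrl. The log2 fold change of −1.38 (SE 0.304) passed (edgeR adjusted p = 0.0324). Without KO 2, KO 3, Ctrl 1, Ctrl 2 or Ctrl 3 it did not (edgeR adjusted p = 0.122, 0.0600, 0.105, 0.133 and 0.107), with log2 fold changes between −1.57 and −1.13.

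Cabp5, a calcium-binding protein of bipolar cells, had 7.96, 7.65 and 14.8 CPM in KO, against 32.0, 20.0 and 26.9 CPM in Ctrl. The highest KO library, KO 3, was still under the lowest Ctrl library. Its log2 fold change of −1.37 (SE 0.368) was close to that of Vsx1 but missed the threshold (edgeR adjusted p = 0.0522). It passed without KO 1 (−1.16, edgeR adjusted p = 0.0458) and without KO 3 (−1.71, edgeR adjusted p = 0.0470).

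Prkca encodes protein kinase C alpha, the usual marker of rod bipolar cells, which endothelium also makes. Its level was 60.0, 43.3 and 65.9 CPM in KO, against 98.0, 102 and 118 CPM in Ctrl, with no overlap and KO 2 the lowest. The log2 fold change was −0.91 (SE 0.249, edgeR adjusted p = 0.0547). It passed without KO 1 (−0.89, edgeR adjusted p = 0.0284) and shrank to −0.40 with GC offsets (edgeR adjusted p = 0.291). It was the longest of the 9 genes, at 410501 bases on chromosome 11, and the lowest in transcript GC content, at 44.6%.

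Isl1, a LIM homeodomain factor of ON bipolar, starburst amacrine and ganglion cells, had the highest CPM of the 9 in Ctrl. It had 70.5, 80.1 and 121 CPM in KO, against 192, 165 and 179 CPM in Ctrl. The mean was 90.5 ± 26.7 CPM in KO and 179 ± 13.6 CPM in Ctrl (SD, n = 3 each), 1.97-fold higher in Ctrl with no overlap. The log2 fold change of −0.98 (SE 0.270) missed the threshold (edgeR adjusted p = 0.0559) and passed without KO 1 (−0.77, edgeR adjusted p = 0.0446).

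Pax6, the paired-box factor kept on in amacrine cells and also present in ganglion, horizontal and progenitor cells, lies on chromosome 2 from 105668896 to 105698410. It had 32.2, 24.5 and 32.4 CPM in KO, against 58.8, 42.8 and 45.4 CPM in Ctrl. The groups did not overlap, and the log2 fold change was −0.72 (SE 0.258, edgeR adjusted p = 0.106). Its 8 transcript entries did not give 1 answer in the authors' deposited table. There the longest entry had a log2 fold change of −0.64 (adjusted p = 0.104) and the shortest, of 15947 bases, −0.79 (adjusted p = 0.0404).

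Reads inside that shortest Pax6 entry came to 21.4 ± 3.43 CPM in KO and 39.2 ± 6.64 CPM in Ctrl. Reads of the longest entry outside it came to 8.30 ± 1.77 CPM in KO and 9.78 ± 1.97 CPM in Ctrl (SD, n = 3 each), so that the lower level in KO lay mostly within the shorter one. In the fit with the shortest entry of each gene, Pax6 had a log2 fold change of −0.88 (edgeR adjusted p = 0.0728). At its ends Pax6 overlaps the antisense genes Pax6os1, by 1435 bases, and Elp4, by 1091 bases. Pax6os1 had a log2 fold change of 0.17 (edgeR adjusted p = 0.792) and Elp4 of −1.23 (edgeR adjusted p = 0.0412), and the share of their reads in the Pax6 count was not tested.

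Tfap2b, an AP-2 factor of amacrine and horizontal cells, was near the lower limit of the assay. It had 25, 14 and 34 counts in KO and 28, 27 and 33 in Ctrl, or 0.980, 0.558 and 1.17 CPM in KO and 0.957, 1.11 and 2.15 CPM in Ctrl. The groups overlapped. The log2 fold change of −0.63 carried an SE of 0.626 (2 SE either side −1.88 to 0.63, edgeR adjusted p = 0.531), so that neither a rise nor a fall was detectable. The parts of counting error and of the spread between pups in that SE were not tested.

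**Figure D2:**
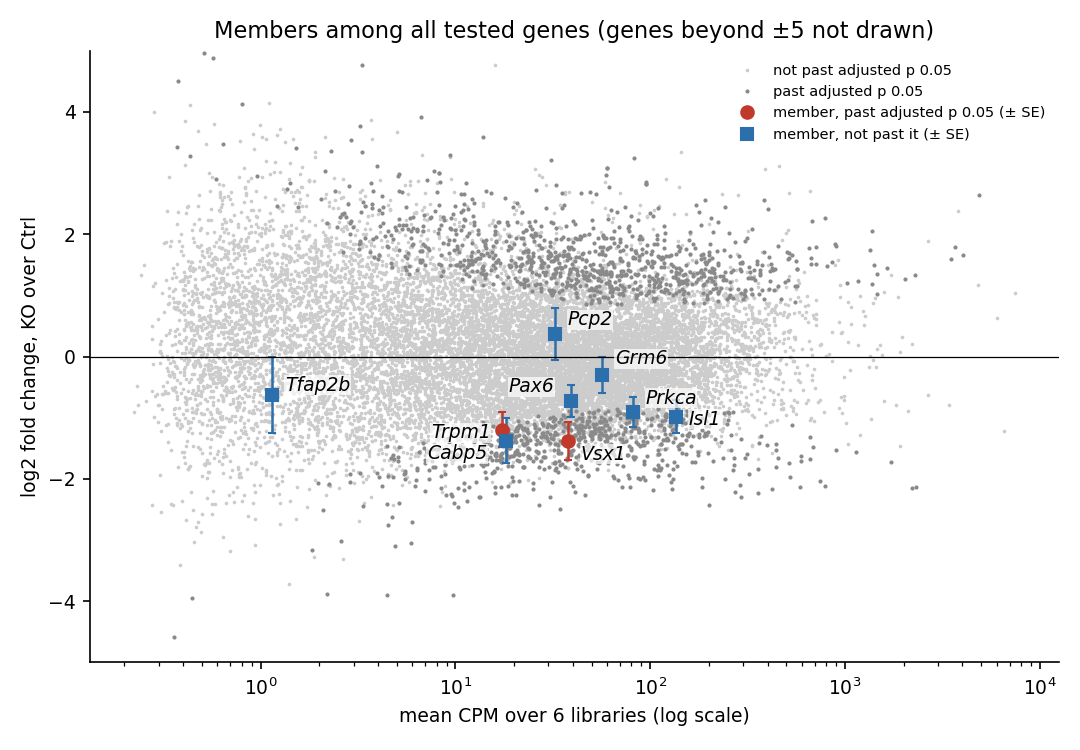
Log2 fold change of KO over Ctrl against mean CPM over 6 libraries (log scale) for the 16217 tested genes (those beyond ±5 are not drawn), with grey points for all genes and labelled points with SE bars for the 9 members. Trpm1 (−1.20) and Vsx1 (−1.38) are drawn as past the threshold, Cabp5 (−1.37) lies at the same height without passing, and Pcp2 (0.37) is the only member above 0.

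The authors' deposited table, which gives an adjusted p to 30664 transcript entries and has 22.2% of them past 0.05, 9.51% lower in KO, called more of the members. The entries used here passed for 5 of the 9 genes there. Its log2 fold changes were −1.10 for Trpm1 (adjusted p = 0.00616) and −1.29 for Vsx1 (adjusted p = 0.00196). They were −1.29 for Cabp5 (adjusted p = 0.00991), −0.82 for Prkca (adjusted p = 0.0233) and −0.89 for Isl1 (adjusted p = 0.0267). Grm6 (−0.21), Pcp2 (0.47) and Tfap2b (−0.54) did not pass in the deposited table either.

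Per kilobase of exonic length the means of the genes stood in a different order in each group. In KO, Pcp2 was at 72.4 CPM per kilobase and Isl1 at 36.0, followed by Grm6 at 11.8, Pax6 at 11.6, Prkca at 6.71, Cabp5 at 5.71, Vsx1 at 5.52, Trpm1 at 1.84 and Tfap2b at 0.298. In Ctrl, Isl1 was at 71.0, Pcp2 at 55.9, Pax6 at 19.1, Cabp5 at 14.8, Grm6 at 14.5, Vsx1 at 14.4, Prkca at 12.6, Trpm1 at 4.21 and Tfap2b at 0.466. Neighbours in these orders whose libraries overlapped, so that their order does not exceed their spread, were Pcp2 and Isl1 in both groups and Grm6 and Pax6 in KO. The same held for Prkca, Cabp5 and Vsx1 in KO, each with the next, and for Pax6, Cabp5, Grm6, Vsx1 and Prkca in Ctrl. The lengths given for the entries span introns, and whether the counts include intron reads was not tested. Besides Pcp2 and Pax6, whose overlaps are given above, Trpm1 overlaps Mir211 and Mir6416. Prkca overlaps Mir7223, Gm51922 and Gm11655. These genes have no counts here, so the levels are approximate.

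Of the other genes of the ON bipolar cascade, 1 of 10 fell past the threshold and 0 rose (0 higher at unadjusted p under 0.05, 0 in DESeq2 and 0 in limma-voom). Over all tested genes 4.44% fell and 5.85% rose, which is the background for this and the later lists. The 10 were the G protein subunits, the RGS proteins that switch them off and the proteins that anchor the receptor. Of their estimates 9 were negative, with a median log2 fold change of −0.78, which shrank to −0.27 without KO 1. Rgs9bp, the anchor of the RGS complex in photoreceptors, fell to 12.5 ± 3.08 CPM in KO, against 44.6 ± 4.17 CPM in Ctrl (SD, n = 3 each; log2 fold change −1.83, SE 0.290, edgeR adjusted p = 0.0212). Lrit3, which holds TRPM1 at the dendrite tips, had 0.314, 1.23 and 4.05 CPM in KO and 6.70, 7.92 and 6.78 CPM in Ctrl, without overlap (edgeR adjusted p = 0.141). Gnb5, the beta subunit bound to RGS proteins, had a log2 fold change of −1.09 (edgeR adjusted p = 0.156). Without KO 2, Ctrl 1, Ctrl 2 or Ctrl 3 none of the 10 passed, and 2 did in DESeq2.

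Transcription factors of bipolar cells gave 2 lower and 0 higher of 13 (0 higher at unadjusted p under 0.05, 0 in DESeq2 and 0 in limma-voom). Their median log2 fold change was −0.77. Neurod4, a bHLH factor of newborn bipolar cells, fell to 198 ± 89.3 CPM in KO, against 691 ± 30.1 CPM in Ctrl (log2 fold change −1.80, SE 0.354, edgeR adjusted p = 0.0247). Otx2, which photoreceptors also need, had 274, 259 and 547 CPM in KO, against 1154, 939 and 909 CPM in Ctrl (log2 fold change −1.48, SE 0.344, edgeR adjusted p = 0.0373). Fezf2, a zinc finger factor, had a log2 fold change of −0.98 (edgeR adjusted p = 0.0912). The count of lower factors was 0 without KO 2, Ctrl 1, Ctrl 2 or Ctrl 3, 1 without KO 3, and 5 with DESeq2 and with GC offsets.

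Of the 18 markers of bipolar subtypes tested, 1 fell and 1 rose, near the shares of all tested genes (4.44% and 5.85%). Of their estimates 14 were negative and 4 positive. The median log2 fold change was −0.79, against −0.42 without Ctrl 1 and −0.44 without KO 1. Grik1, the kainate receptor subunit of OFF bipolar cells, had 35.9, 13.5 and 18.8 CPM in KO, against 71.9, 73.8 and 52.9 CPM in Ctrl (log2 fold change −1.54, SE 0.388, edgeR adjusted p = 0.0445). Vstm2b had 9.80, 7.53 and 6.44 CPM in KO, against 2.46, 1.73 and 2.93 CPM in Ctrl (log2 fold change 1.74, SE 0.399, edgeR adjusted p = 0.0353). Spock3 (−1.71) missed the threshold (edgeR adjusted p = 0.0552). None passed without KO 2, Ctrl 1, Ctrl 2 or Ctrl 3, nor without KO 3, while 6 fell and 2 rose without KO 1. With GC offsets 2 fell and 0 rose, and DESeq2 called 3 lower and 1 higher.

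Amacrine genes other than the members were thinly represented, with 16 of 23 tested. Of these, 1 rose and 0 fell (1 lower at unadjusted p under 0.05, 0 in DESeq2 and 0 in limma-voom). Of their estimates 10 were negative and 6 positive. The median log2 fold change was −0.47, against −0.24 without KO 2 and −0.29 with GC offsets. Their sum, which includes Stx1a and Nr4a2, was higher in KO, at 366, 343 and 398 CPM, against 310.1, 291 and 317 CPM in Ctrl. The cholinergic genes Chat, Slc18a3 and Slc5a7, the dopamine enzyme Th and the inhibitory vesicle transporter Slc32a1 did not pass the filter on low counts. Stx1a, syntaxin of the synapse and long used to stain amacrine cells, rose to 93.6 ± 18.3 CPM in KO, against 27.4 ± 5.05 CPM in Ctrl (SD, n = 3 each; log2 fold change 1.77, SE 0.265, edgeR adjusted p = 0.0212). Nr4a2 (1.13, edgeR adjusted p = 0.142) and the AP-2 factor Tfap2c (−1.39, edgeR adjusted p = 0.163) did not pass. Stx1a passed neither without KO 2 nor without any 1 of the Ctrl libraries.

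Scaling the libraries to equal endothelial markers moves the median of all tested genes to −1.27. Under it 8077 of all 16217 tested genes passed, and only 0.891% of those were higher. The list counts turned to 9 lower of 10 cascade genes and 11 lower of 13 factors. They were 12 lower of 18 subtype markers and 7 lower of 16 amacrine genes, with 0 higher in each list.

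Other cell types moved beside the members. The 18 photoreceptor markers together had 5363, 10737 and 25275 CPM in KO 1, 2 and 3, against 36877, 21267 and 24383 CPM in Ctrl 1, 2 and 3. In KO 1 and KO 2 this sum was below each Ctrl library, and in KO 3 it was within the Ctrl range. The mean log2 level of the 18, which weights them equally, stood at −2.32, −1.46 and −0.24 in KO and 0.30, −0.25 and −0.05 in Ctrl, relative to the Ctrl mean. Even so, 8 of the 18 were lower in every KO library, KO 3 included, as were 18.9% of all tested genes. Among the 8 was Rp1, with 277 CPM in KO 3 and 782 to 1078 CPM in Ctrl. Of the 18, 4 fell and 0 rose (0 higher at unadjusted p under 0.05, 0 in DESeq2 and 0 in limma-voom), with Rp1 (−2.13), Cnga1 (−1.50) and Gngt1 (−1.84) leading, and 2 fell with GC offsets and 8 in DESeq2. The 16 endothelial markers had 11523, 15753 and 12051 CPM in KO and 3733, 5178 and 5683 CPM in Ctrl, and 11 rose, among them Sox18 (2.06), Ramp2 (1.65) and Egfl7 (1.67). Photoreceptor and endothelial counts were 0 without KO 2, Ctrl 1, Ctrl 2 or Ctrl 3. The labelled cell type, EC, was therefore present in every library together with RNA of retinal neurons. No listed marker in the table was at 0 in all libraries, and the part of either cell type in the members' differences was not tested.

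The smaller lists divided, and the calls named here were lost without KO 2 or any 1 Ctrl library. The horizontal cell markers, 3 of 5 tested, summed to 50.8 to 63.9 CPM in KO and 145 to 155 CPM in Ctrl. Most of this sum was Prox1, a homeobox factor of horizontal and amacrine cells, at 48.0 to 60.3 CPM in KO and 136 to 145 CPM in Ctrl. Prox1 fell (−1.40, edgeR adjusted p = 0.0212). Onecut2 (−1.18, edgeR adjusted p = 0.143) and Onecut1 (−0.42, edgeR adjusted p = 0.747) did not pass, and their groups overlapped. The ganglion cell markers, 9 of 11 tested, summed to 337 to 361 CPM in KO and 117 to 139 CPM in Ctrl, and Sncg (2.72) and Rbpms (1.77) rose, while the other 7 did not pass and 4 of the 9 estimates were negative, the lowest that of Pou4f1 (−1.28, edgeR adjusted p = 0.123). Rbpms alone made up 72.1% to 83.0% of the ganglion sum in KO and 47.1% to 67.6% in Ctrl, and with equal endothelial markers 1 rose and 3 fell. Isl1 and Pax6, which ganglion cells share, were lower in the same KO libraries. Müller glia markers summed to 1207 to 1502 CPM in KO and 1252 to 1522 CPM in Ctrl, where 1 of 8 rose, Glul (1.34), and 0 rose without KO 3 or with equal endothelial markers. Progenitor markers summed to 520.3 to 933 CPM in KO and 598 to 1511 CPM in Ctrl, where 1 of 7 tested rose, the cyclin Ccnd1 (1.23), and 0 rose with equal endothelial markers.

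Mural and microglial markers varied between single libraries. The 6 mural markers summed to 736, 489 and 273 CPM in KO and 112, 322 and 776 CPM in Ctrl, with 0 of 6 past edgeR's threshold (1 at unadjusted p under 0.05, 1 in DESeq2 and 0 in limma-voom). The 8 microglial markers summed to 61.9, 9375 and 1729 CPM in KO and 824, 961 and 123 CPM in Ctrl, with 0 of 8 past it (0 at unadjusted p under 0.05, 0 in DESeq2 and 0 in limma-voom). All 8 microglial estimates were positive, with a median log2 fold change of 2.19 that was 0.26 without KO 2, 0.58 in limma-voom and 0.75 with equal endothelial markers, and 4 of 8 rose without KO 1, as did 1 mural marker. KO 2 had the most microglial RNA and, of the 6 libraries, the lowest Vsx1, Prkca, Cabp5, Tfap2b and Pax6. Whether these are related was not tested.

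**Figure D3:**
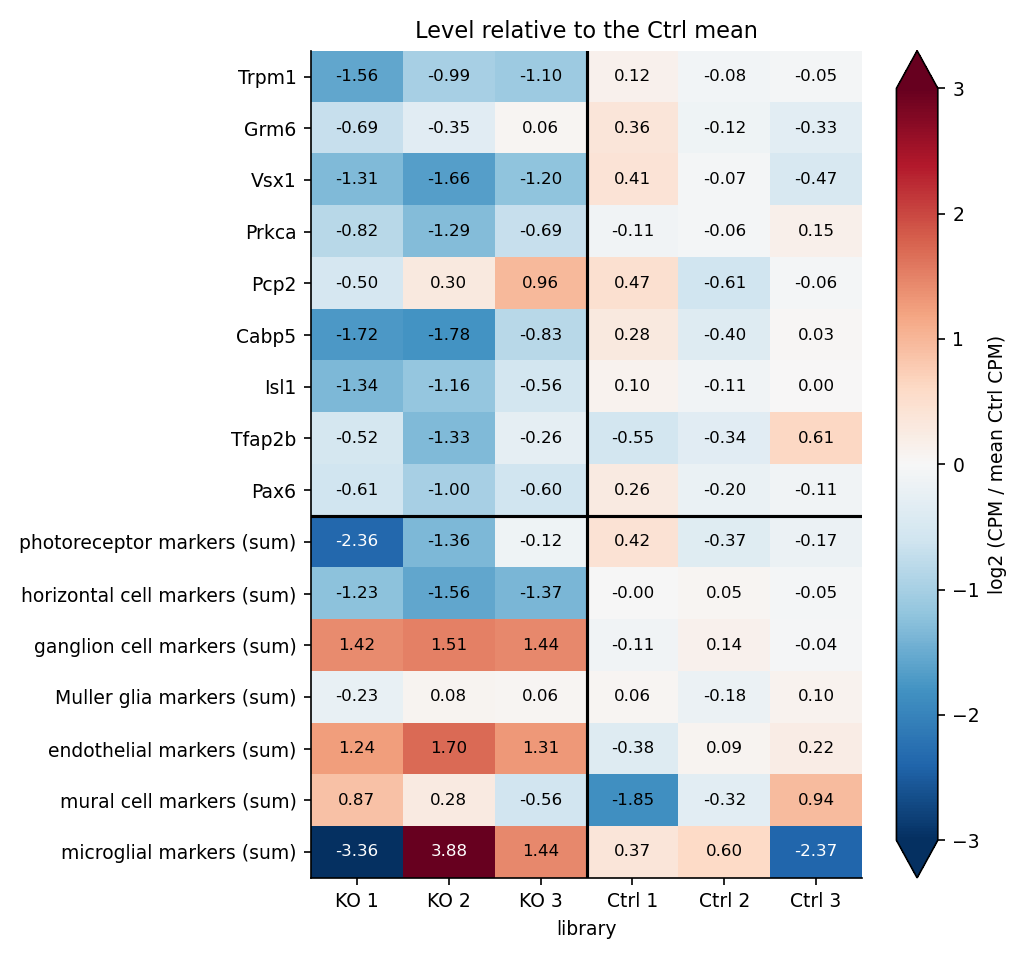
Log2 of CPM over the mean Ctrl CPM for the 9 genes (upper rows) and for the summed markers of 7 other cell types (lower rows), with KO 1 to 3 on the left and Ctrl 1 to 3 on the right. Photoreceptor markers stand at −2.36, −1.36 and −0.12 in KO 1, 2 and 3, and Vsx1 at −1.31, −1.66 and −1.20 in the same libraries. Most of the horizontal cell sum is Prox1.

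Set against photoreceptor RNA, most members did not separate the groups. Trpm1 came to 1.52, 1.12 and 0.445 CPM for each 1000 CPM of photoreceptor markers in KO, against 0.708, 1.07 and 0.952 in Ctrl, and Vsx1 to 4.09, 1.60 and 0.936 in KO, against 1.96, 2.44 and 1.61 in Ctrl. In both, KO 1 was the highest library and KO 3 the lowest. Pcp2 alone of the 9 did not overlap, at 3.71, 3.23 and 2.17 in KO and 1.06, 0.869 and 1.11 in Ctrl, while 35.9% of all tested genes did not overlap in either direction. With the geometric mean of the 18 markers in place of their sum, Grm6 and Pcp2 were higher in every KO library and the other 7 overlapped, while 42.9% of all tested genes did not overlap. Set against endothelial markers, 8 of 9 members were lower in every KO library and Pcp2 overlapped, and 66.1% of all tested genes were lower in this way. Whether a member separated the groups thus depended on the cell type it was set against.

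The KO libraries differed among themselves. KO 3, with the most photoreceptor RNA of the KO libraries, also had the highest level of Grm6, Vsx1, Prkca, Pcp2, Cabp5, Isl1, Tfap2b and Pax6 among them. The ratio of KO 3 to KO 1 was 2.76 for Pcp2, 1.87 for Cabp5, 1.71 for Isl1 and 1.68 for Grm6, but 1.08 for Vsx1, 1.10 for Prkca and 1.00 for Pax6. The photoreceptor sum was 4.71 times as high in KO 3 as in KO 1.

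None of the 5 genes most like Trpm1 or Vsx1 across the 6 libraries was on a marker list. Likeness was the root-mean-square difference of mean-centred log2 CPM over 6 libraries, among 8883 genes with a mean of at least 20 CPM. Closest to Trpm1 were Narf (0.064), Plekha2 (0.082), Fam214a (0.085), Gpatch2l (0.093) and Trim2 (0.103). Closest to Vsx1 were Rgs9 (0.103), Prdm1 (0.131), Ube4a (0.160), Zfp105 (0.167) and Zfp113 (0.169). Among the members themselves the nearest to Trpm1 was Isl1 (0.223) and the farthest Pcp2 (0.858), and the nearest to Vsx1 was Cabp5 (0.340) and the farthest Pcp2 (0.972). Where these distances rank among those of the 8883 genes was not computed, so they do not show whether the members are unlike each other. Rgs9, the RGS protein of photoreceptors, had 82.5, 62.5 and 91.9 CPM in KO and 303, 175 and 157 CPM in Ctrl, and Prdm1, a zinc finger repressor of young photoreceptors, had 115, 105 and 121 CPM in KO and 328, 274 and 224 CPM in Ctrl.

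**Figure D4:**
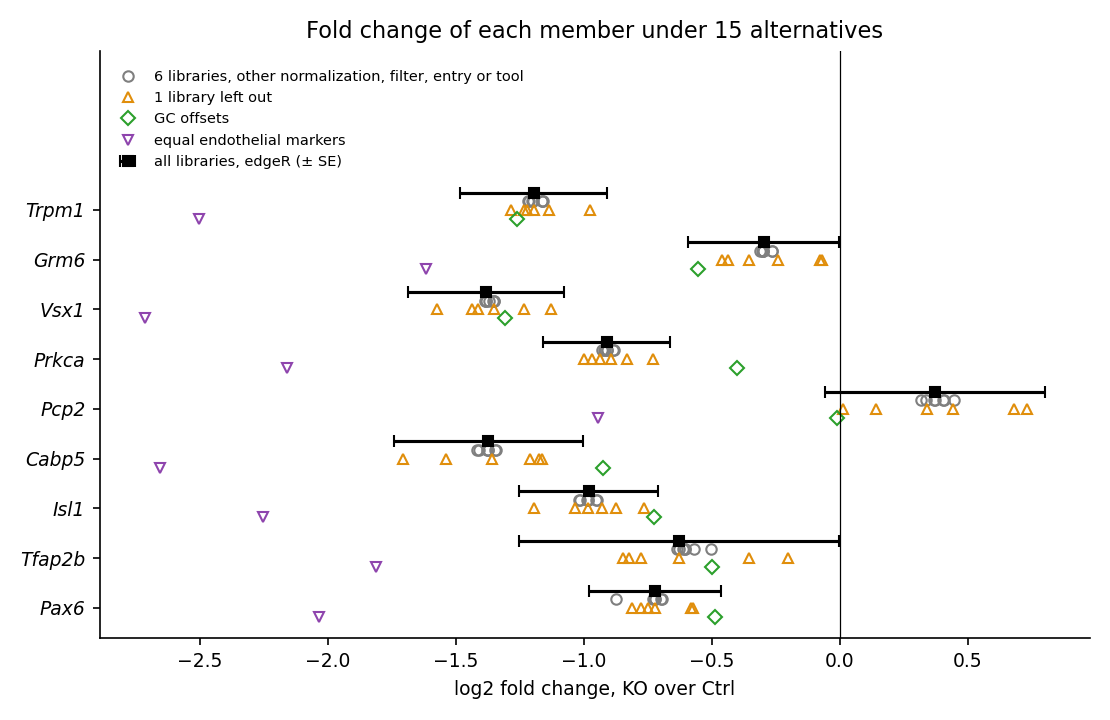
Log2 fold change of each of the 9 genes, KO over Ctrl, with all libraries in edgeR (black, ± SE) and under 15 alternatives (open symbols). Trpm1, Vsx1, Prkca, Cabp5, Isl1, Pax6, Tfap2b and Grm6 stay below 0 under all of them, while Pcp2 crosses 0 with GC offsets (−0.01) and with equal endothelial markers (−0.94).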

How the data were processed

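Poly(A) RNA of sorted CD31+ cells, 1 library for each of 6 pups, was reverse transcribed, amplified as full-length cDNA and sequenced as single reads, per the labels' protocols, which mark no strand. STAR, Trimmomatic 0.36, deepTools, edgeR, DESeq2 and the build mm10 stand in the submitters' processing notes, with no role. The counting tool is not given in the sources used here. Per the file headers the deposited table holds, for 34035 transcript entries, the raw count in every library, a normalized signal (that count over the library's size factor), RPKM, a length, and the authors' DESeq2 log2 fold change, its error, a Wald statistic (a score), p-value and adjusted p-value. The Ctrl 3 count column carries a name unlike its replicate number, and its ratio to the normalized column named for Ctrl 3 is constant. No per-sample column was left over. RPKM values were not used.

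Counts of the longest entry of each gene were tested with edgeR 4.0.16 (TMM, filterByExpr, quasi-likelihood test, two-sided) in R 4.3.3, with no covariate. The code of the fit was run on simulated counts with planted changes. These had the same spread for every gene and no shift in cell types between libraries, so that run cannot show how the fit behaves on these libraries. SE is the log2 fold change over the square root of F. DESeq2 1.42.0 and limma 3.58.1 were alternatives, beside size factors, equal endothelial markers, no filter, other entries, GC offsets, a replicate block and leaving out each library. GC content from GENCODE M21 covered 92.1% of tested genes. Gene positions are from RefSeq on GRCm38.p6, the assembly of mm10, and all 9 members had upstream windows. Likeness used log2(CPM + 0.1). Python 3.11.15 with pandas 2.3.3, numpy 2.4.6 and matplotlib 3.10.9 made summaries and plots. The members and lists were chosen with earlier results of these data known, and GC offsets, the shortest entry and the geometric mean of photoreceptor markers (of CPM + 0.1) were added after the data were seen. Named genes are Rnf20, the members, of every list up to 3 genes by smallest adjusted p, genes overlapping a member, with or without counts, and the 5 genes most like each called member. P-values measure the spread between 3 pups a group. Exact permutation tests of 3 against 3 cannot go below 0.1.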

Additional observations from a re-analysis of the deposited data

How the results depend on the processing

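The direction of 8 of the 9 members held under all 15 alternatives. Pcp2 reversed, to −0.0114 with GC offsets and to −0.94 with libraries scaled to equal endothelial markers, a scaling that moves the median of all genes to −1.27. The calls were less stable. The count of members past the threshold, 2 with all libraries in edgeR, was 5 with DESeq2, 5 with limma-voom, 7 with equal endothelial markers, 1 with the shortest entry and 0 with the replicate block, and 0 to 5 with 1 library left out. Members whose groups do not overlap numbered 5 with GC offsets (41.2% of all genes) and 8 with equal endothelial markers (62.6% of all genes), against 6 otherwise. Over all genes 1668 passed (56.8% higher, 4953 at an unadjusted p below 0.05), against 3556 with DESeq2, 8077 with equal endothelial markers (0.891% higher), 1 with the replicate block and 0 to 4927 with 1 library left out. With the replicate block Trpm1 (edgeR adjusted p = 0.165) and Vsx1 (0.142) missed the threshold. Fits with 5 libraries have fewer to measure spread with. Rnf20 passed with equal endothelial markers (−1.94, edgeR adjusted p = 0.00240) and without KO 1, with −0.75 to −0.58 over the fits that leave out 1 library. The labels do not say whether replicate numbers pair the pups. Same-numbered libraries deviated from their group means with correlations of −0.394, 0.073 and −0.264 (numbers 1, 2 and 3), and differently numbered ones with −0.326 to 0.415. With 3 libraries a group, these correlations cannot show whether pups were paired. Of 360 counts of the other lists under alternatives, 92 moved by over 1.5 times. Tfap2b had 14 to 34 counts a library, the fewest of the members.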
